A study of Arabidopsis thaliana with 4 samples.

Results

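The genes described here are nuclear genes of Arabidopsis thaliana that encode the light-harvesting chlorophyll proteins, subunits of photosystems I and II, and the small subunit of Rubisco. There were 43 of them, selected by gene identifier with no threshold on the index, out of 23498 loci with a value in at least 1 library. All 43 had a value in every library, as did 17049 loci in all. They comprised 18 light-harvesting (LHC) genes, 12 photosystem I genes, 9 photosystem II genes and 4 Rubisco genes. The measurement is the co-translational RNA decay index, a ratio without a unit that the authors derived for every gene from global mapping of uncapped transcripts (GMUCT), which sequences the 5′ ends of polyadenylated RNAs that lack a cap. Of the 4 libraries, 2 are labelled abh1, a loss-of-function mutant of ABH1 in the Col-0 ecotype, and 2 are labelled Col-0_CHX, with wild type as the genotype. ABH1 encodes CBP80, the larger protein of the nuclear cap-binding complex. The labels give every library the same source, immature inflorescence with buds from plants of about 4 weeks in days of 16 h light and 8 h dark, and call the plants untreated, while CHX stands in the titles without being spelled out. Because genotype and CHX change together, their parts in any difference cannot be told apart. The abh1 titles carry the numbers 1 and 8, which may be plants, alleles or neither. No label says that replicates were grown separately, so the spread behind a p-value is only that between these libraries, and may be technical. In limma that spread is partly shared across all loci tested, so it is not that of a single gene alone.

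The light-harvesting proteins bind chlorophyll in the thylakoid membrane and pass light energy to the reaction centres, the LHCA proteins to photosystem I and the LHCB proteins mainly to photosystem II. Photosystem II splits water, photosystem I reduces ferredoxin, and Rubisco fixes carbon dioxide with the energy so gained. The reaction centre cores and the large Rubisco subunit are encoded in the chloroplast genome, while the antenna, many peripheral subunits and the small Rubisco subunit are encoded in the nucleus, translated in the cytosol and imported. Their messenger RNAs are among the most abundant of green tissue. In co-translational decay an mRNA loses its cap while ribosomes are still on it, and an exonuclease follows the last ribosome from the 5′ end. Since no formula of the index was found in the labels or files, a higher or lower index is reported only as such.

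Flower genes were not listed alike in the groups. Among 18 genes that mark floral organs and meristems, 18 were listed in both libraries of abh1 but only 3 in both of Col-0_CHX, and for 14 genes of the tapetum and pollen the numbers were 14 and 1. Of the 21858 loci listed in both libraries of abh1, 17049 were listed in both of Col-0_CHX, and all 43 genes of photosynthesis were listed throughout. The part of tissue in the differences given below was not tested. The files hold no read counts, so the depth is unknown. Values that recur exactly at over 10 loci of a library, as ratios of small whole numbers do, made up 16.3% and 18.5% of the 17049 loci in abh1 and 40.4% and 39.8% in Col-0_CHX. Among the 43 genes only LHCB4.1 and LHCB4.3 had such a value, each in the second Col-0_CHX library.

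Within each library the genes of photosynthesis lay in a narrow band centred below the median of all loci. Their median index was 1.08 and 1.06 in abh1, where all loci had 1.15 and 1.14, and 1.21 and 1.19 in Col-0_CHX, where all loci had 1.37 and 1.29. In the first abh1 library the 43 values ran from 0.843 (PSAF) to 1.23 (PSBQ-1), and in the second from 0.877 (PSBO1) to 1.34 (PSAN). In the Col-0_CHX libraries they ran from 0.836 (RBCS1B) to 2.09 (PSAD-2) and from 0.572 (LHCB1.3) to 1.93 (PSAD-2). PSAD-2 thus stood far above the other genes in both Col-0_CHX libraries and LHCB1.3 far below them in 1. The standard deviation of the log2 index across the 43 genes was 0.14 and 0.15 in abh1 and 0.23 and 0.27 in Col-0_CHX. Across the 6572 loci without a repeated value in any library it was 0.30 and 0.30 in abh1 and 0.44 and 0.42 in Col-0_CHX.

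**Figure D1:**
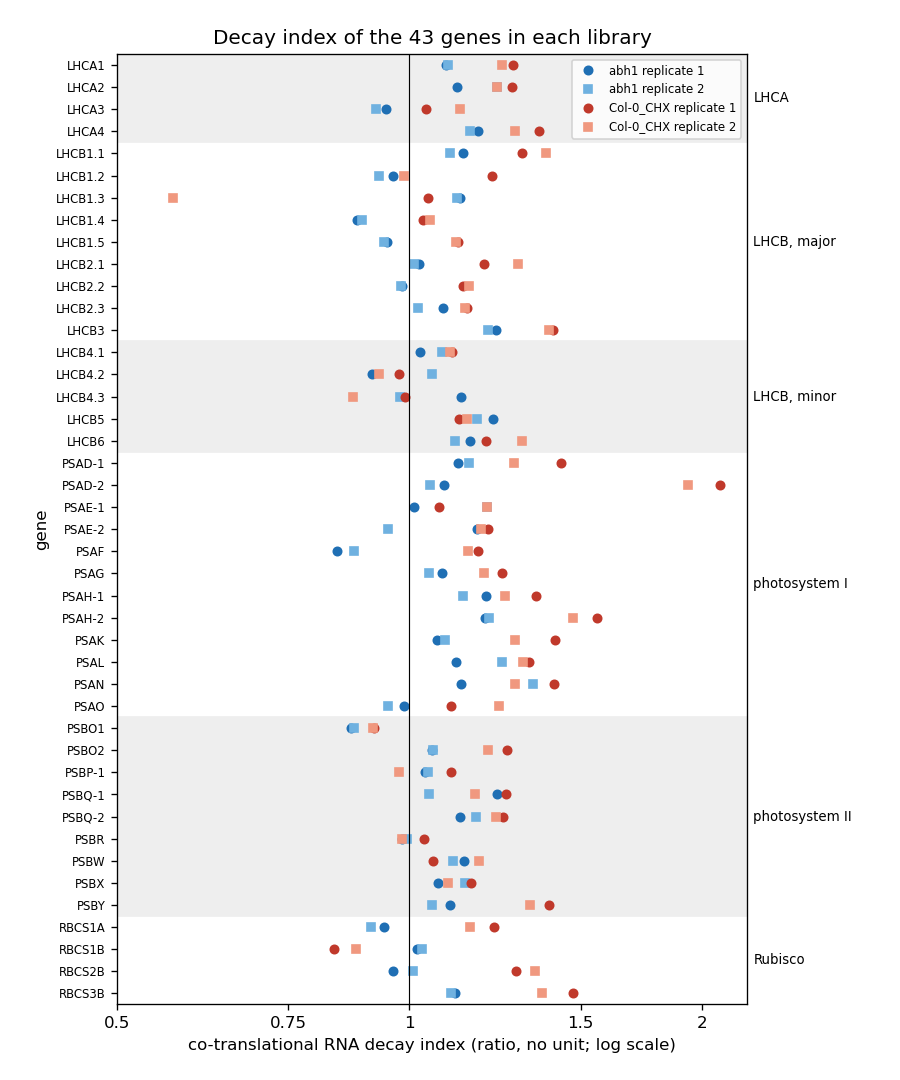
Decay index (horizontal axis, ratio on a log scale) of each of the 43 genes (vertical axis, grouped by class) in the 2 abh1 libraries (blue) and the 2 Col-0_CHX libraries (red), with a line at 1. Most red points lie right of the blue ones, with PSAD-2 farthest right at 2.09 and 1.93 and LHCB1.3 farthest left at 0.572 in 1 Col-0_CHX library.

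Ranked against all loci of the same library, which removes the difference in level between libraries, the median gene of photosynthesis was at percentile 39.9 and 36.0 in abh1 and at percentile 35.5 and 40.1 in Col-0_CHX. Below the library median were 35 and 31 of the 43 genes in abh1, and 34 and 31 in Col-0_CHX. The LHCA and photosystem I genes were nearer to the middle, with class medians between percentile 42.8 and 48.7 in the 4 libraries. The major LHCB genes, whose products form the trimeric antenna of photosystem II, had class medians between 29.5 and 34.3, and the photosystem II genes between 31.0 and 37.6. The class median of the Rubisco genes was at percentile 25.6 and 30.4 in abh1 and at 40.5 and 45.9 in Col-0_CHX. That of the minor LHCB genes was at percentile 48.2 and 40.0 in abh1 and at 26.1 and 30.1 in Col-0_CHX. The last of these was the rank of LHCB4.1, which had a repeated value in that library. The lists ranked differ in length, at 22495 and 22492 loci in abh1 but 18321 and 18215 in Col-0_CHX. Ranked only among the 17049 loci common to all, the Rubisco medians were 20.9 and 25.5 in abh1 and 38.8 and 44.6 in Col-0_CHX, and the minor LHCB medians 46.3 and 36.6 in abh1 and 23.6 and 28.1 in Col-0_CHX. The ranks describe 4 to 12 genes a class and were not tested.

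**Figure D2:**
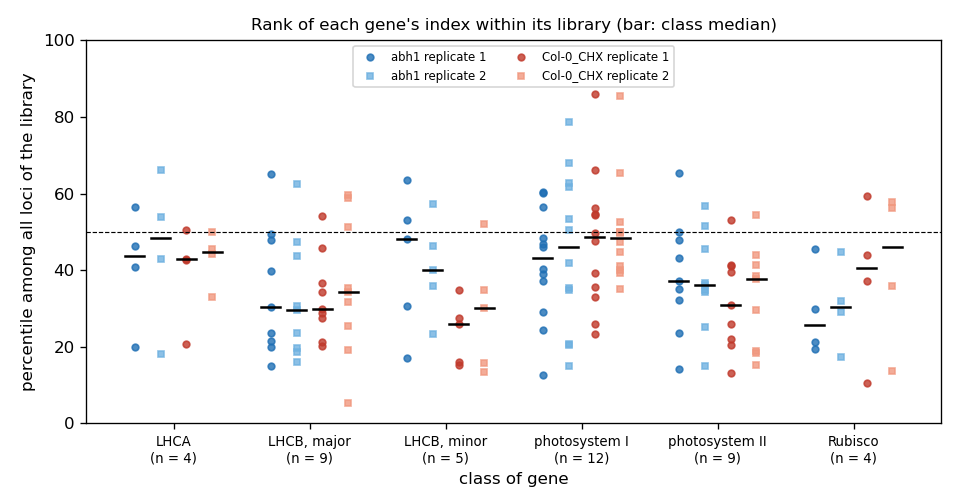
Percentile of each gene's index among all loci of its library (vertical axis) by class of gene (horizontal axis) and library (colour and marker), where black bars are class medians and the dashed line is the middle of the library. The Rubisco medians are lower in the abh1 libraries (25.6 and 30.4) than in Col-0_CHX (40.5 and 45.9), and those of the minor LHCB genes are higher.

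The index of these genes was close between replicate libraries. The median difference between the libraries of a group, in either direction, was 0.047 on the log2 scale in abh1 and 0.079 in Col-0_CHX, where the 6572 loci without repeated values had 0.095 and 0.19. PSBO1 (AT5G66570), which stabilises the manganese cluster that splits water, had 0.870 and 0.877 in abh1 and 0.919 and 0.917 in Col-0_CHX. LHCB1.5 (AT2G34420), of the major antenna, had 0.947 and 0.942 in abh1 and 1.12 and 1.12 in Col-0_CHX. In both genes the deposited values fell into tight pairs, 1 for each group, with abh1 below, as at 45.2% of all loci. With each library centred on its median log2 index, abh1 lay above in PSBO1 and the groups overlapped in LHCB1.5. The largest distance was that of LHCB1.3, with 1.05 and 0.572 in Col-0_CHX, which lie 0.87 apart on the log2 scale. The next were 0.30 for PSAE-2 in abh1 and 0.30 for LHCB1.2 in Col-0_CHX, followed by 0.25 for PSAE-1, 0.24 for PSAN and 0.23 for PSBQ-1, all in abh1. Pearson's r of the log2 index across the 43 genes was 0.73 between the abh1 libraries, 0.79 between the Col-0_CHX libraries, and 0.30 to 0.46 between libraries of different groups. Without LHCB1.3 and PSAD-2, left out after their values were seen, the last range was 0.50 to 0.55 over 41 genes. Across the 6572 loci without repeated values r was 0.76 between the abh1 libraries, 0.55 between the Col-0_CHX libraries and 0.25 to 0.28 between groups. These correlations run across genes that share libraries and, in several families, near-identical sequences, and are given as descriptions.

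**Figure D3:**
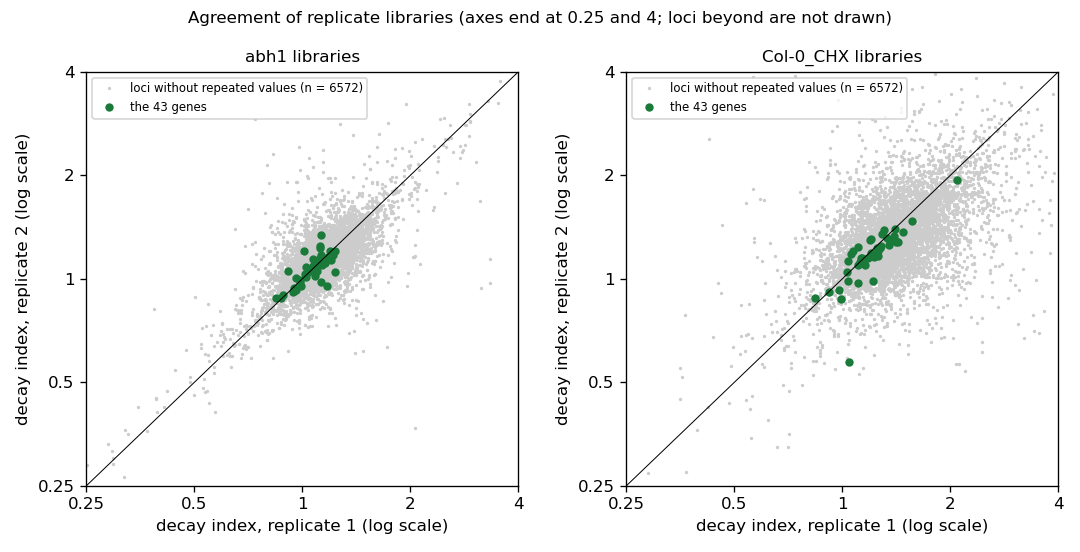
Decay index in replicate 1 (horizontal axis) against replicate 2 (vertical axis), both on log scales, for the abh1 and the Col-0_CHX libraries, with the 43 genes in green over the 6572 loci without repeated values in grey, and the line of equal values. The green points lie close to the line apart from LHCB1.3 in Col-0_CHX (1.05 and 0.572).

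The comparison of abh1 with Col-0_CHX asks how the index of these genes differs between the 2 kinds of library. The index was lower in abh1 at 36 of the 43 genes and higher at 7. The background was similar, since the index was lower at 72.2% of all loci and at 77.0% of those with no repeated value. The median log2 difference, abh1 minus Col-0_CHX, was -0.18 over the 43 genes and -0.23 over all loci. By family it was -0.19 for the 18 LHC genes, -0.23 for the 12 photosystem I genes, -0.07 for the 9 photosystem II genes and -0.36 for the 4 Rubisco genes. Both abh1 libraries lay below both Col-0_CHX libraries at 31 genes and above both at 3. Over all loci the shares were 45.2% and 10.7%, and over loci with no repeated value 54.8% and 9.78%.

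The libraries also differed in level as a whole. With each library centred on its median log2 index, 15 of the 43 genes were lower and 28 higher in abh1. On that scale the groups did not overlap at 8 genes with abh1 lower and at 16 with abh1 higher, where the shares were 26.3% and 24.9% of all loci and 28.8% and 29.8% of loci with no repeated value. After centring, the photosystem II genes were 2 lower and 7 higher, the LHCA genes 0 and 4, the major LHCB genes 4 and 5, the minor LHCB genes 0 and 5, the photosystem I genes 6 and 6, and the Rubisco genes 3 and 1.

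Gene by gene, limma's moderated test over all 17049 loci called 0 of the 43 genes at a Benjamini-Hochberg adjusted p under 0.05, and 0% of all loci. Its SE joins the spread of a gene with that of all loci tested. For LHCB1.5 the SE was 0.13, where the replicate standard deviation of the log2 index was 0.0055 in abh1 and 0.0049 in Col-0_CHX. At an unadjusted p under 0.05 there were 3 of the 43 lower in abh1 (PSAD-2, PSAF and RBCS2B) and 0 higher, beside 17.2% and 2.84% of all loci. Over the 6572 loci with no repeated value, which held 41 of the 43 genes, limma called 8.63% of loci and 1 gene of photosynthesis, PSAD-2. Leaving out the first or the second abh1 library left 0 calls in that set. Leaving out the first Col-0_CHX library gave calls for PSAD-2 and LHCB1.3, beside 17.3% of loci. Leaving out the second gave calls for PSAD-2, PSAF and RBCS3B, beside 29.8% of loci, so that the share among the 41 genes was below the background in both. Centring each library also left 0 calls in the set, with 1650 loci at an unadjusted p under 0.05 in limma.

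**Figure D4:**
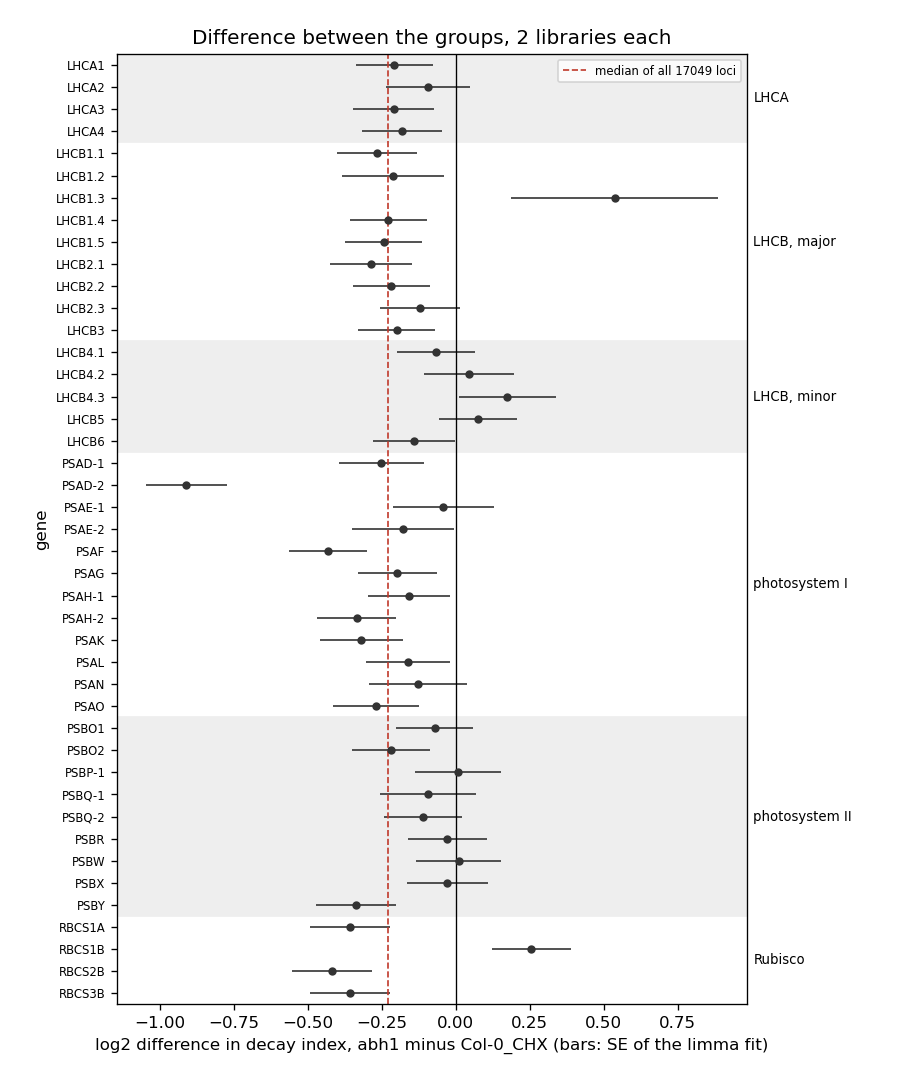
Log2 difference in decay index, abh1 minus Col-0_CHX (horizontal axis), of each of the 43 genes (vertical axis, grouped by class), with the SE of the limma fit as bars and 2 libraries a group. The dashed line is the median of all 17049 loci, at -0.23. PSAD-2 at -0.91 and LHCB1.3 at 0.54 lie farthest from it.

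The 4 LHCA genes, whose products form the belt of antenna on photosystem I, were all lower in abh1, as were 72.2% of all loci. Of the 4, 0 passed the test. LHCA1 (AT3G54890) stood at 1.09 and 1.09 in abh1 and at 1.28 and 1.25 in Col-0_CHX. LHCA3 (AT1G61520), the lowest of the 4 in every library, stood at 0.946 and 0.924 in abh1 and at 1.04 and 1.13 in Col-0_CHX. LHCA4 (AT3G47470) stood at 1.17 and 1.15 in abh1 and at 1.36 and 1.28 in Col-0_CHX. In each of these 3 genes the abh1 pair lay clear below the Col-0_CHX pair as deposited, as it did at 45.2% of all loci. LHCA2 (AT3G61470) stood at 1.12 and 1.23 in abh1 and at 1.27 and 1.23 in Col-0_CHX, so that the groups all but touched. The log2 difference was -0.21 ± 0.14 (SE) for LHCA3 (limma adjusted p = 0.458), -0.21 ± 0.13 (SE) for LHCA1 (limma adjusted p = 0.443) and -0.09 ± 0.14 (SE) for LHCA2 (limma adjusted p = 0.740). With libraries centred these 3 differences turned to 0.0092, 0.012 and 0.13. On that scale the groups overlapped in LHCA1 and LHCA3. In LHCA2 and LHCA4 abh1 then lay above with no overlap, as at 24.9% of all loci.

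Of the 9 genes for the major antenna of photosystem II, LHCB1 to LHCB3, 8 were lower in abh1 with no overlap of the groups and 1, LHCB1.3, was higher, where 45.2% and 10.7% of all loci were so placed. With libraries centred the groups did not overlap in 0 of the 9 with abh1 lower and in 2 with abh1 higher. LHCB3 (AT5G54270) had the highest index of the class in every library, 1.23 and 1.21 in abh1 and 1.41 and 1.39 in Col-0_CHX. LHCB1.4 (AT2G34430) had the lowest in abh1, 0.883 and 0.894, beside 1.03 and 1.05 in Col-0_CHX. LHCB1.1 (AT1G29920, also CAB2) had 1.14 and 1.10 in abh1 and 1.31 and 1.38 in Col-0_CHX. These genes had low, intermediate and high levels and log2 differences of similar size, between -0.27 and -0.20. LHCB2.1 (AT2G05100), with 1.02 and 1.01 in abh1 and 1.19 and 1.29 in Col-0_CHX, had the most negative difference of the class, -0.29 ± 0.14 (SE; limma adjusted p = 0.345). LHCB2.2 (AT2G05070) had 0.983 and 0.980 in abh1 and 1.13 and 1.15 in Col-0_CHX, and LHCB2.3 (AT3G27690) had 1.08 and 1.02 in abh1 and 1.15 and 1.14 in Col-0_CHX. In LHCB1.2 (AT1G29910, CAB3), with 0.963 and 0.930 in abh1 and 1.22 and 0.988 in Col-0_CHX, the second Col-0_CHX library lay nearer to abh1 than to its own replicate.

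LHCB1.3 (AT1G29930, CAB1) stood at 1.13 and 1.12 in abh1 and at 1.05 and 0.572 in Col-0_CHX. The abh1 values were close together and above both others, while the Col-0_CHX values were far apart. Its log2 difference was 0.54 ± 0.35 (SE; limma adjusted p = 0.456). It was 0.10 when the second Col-0_CHX library was left out and 0.97 when the first was. LHCB1.1, LHCB1.2 and LHCB1.3 lie side by side in the RefSeq gene order and encode nearly the same protein. How the authors assigned reads that match several copies is not stated, so single members of LHCB1, LHCB2 and the Rubisco small subunit are uncertain.

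Of the 5 minor antenna genes, whose products are the monomeric proteins CP29 (LHCB4), CP26 (LHCB5) and CP24 (LHCB6) between the core and the trimers, 2 were lower and 3 higher in abh1, with a median log2 difference of 0.04 beside -0.22 for the major antenna. LHCB5 (AT4G10340) stood at 1.22 and 1.17 in abh1 and at 1.12 and 1.15 in Col-0_CHX. LHCB6 (AT1G15820) stood at 1.16 and 1.11 in abh1 and at 1.20 and 1.30 in Col-0_CHX. LHCB4.1 (AT5G01530) stood at 1.03 and 1.08 in abh1 and at 1.11 and 1.10 in Col-0_CHX. The groups did not overlap in these genes as deposited, with abh1 above in LHCB5 and below in LHCB6 and LHCB4.1. Of all loci, 10.7% lay above and 45.2% below in this way. LHCB4.2 (AT3G08940) stood at 0.914 and 1.05 in abh1 and at 0.976 and 0.929 in Col-0_CHX. LHCB4.3 (AT2G40100) stood at 1.13 and 0.977 in abh1 and at 0.990 and 0.875 in Col-0_CHX. In both LHCB4.2 and LHCB4.3 the groups overlapped as deposited. With libraries centred, abh1 lay above with no overlap in 4 of the 5 genes, all but LHCB6, and below in 0. The shares over all loci were 24.9% and 26.3% on that scale. Of the 4 genes, LHCB4.1 and LHCB4.3 had a repeated value in the second Col-0_CHX library. The log2 difference was 0.17 ± 0.17 (SE) for LHCB4.3 (limma adjusted p = 0.600) and -0.14 ± 0.14 (SE) for LHCB6 (limma adjusted p = 0.612), and that of LHCB6 turned to 0.079 with libraries centred.

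All 12 photosystem I genes had a lower index in abh1, 10 of them with no overlap of the groups. Of all loci, 72.2% were lower and 45.2% lower with no overlap. With libraries centred 6 of the 12 were lower and 6 higher. The groups then did not overlap in 4 with abh1 lower and in 1 with abh1 higher, beside 26.3% and 24.9% of all loci. PSAD-2 (AT1G03130), which encodes a stromal subunit at the docking site of ferredoxin, had the largest difference of the 43 genes as deposited. With libraries centred that of LHCB1.3 was larger, 0.76 against -0.69 on the log2 scale. PSAD-2 stood at 1.09 and 1.05 in abh1 and at 2.09 and 1.93 in Col-0_CHX, where its index was 1.88-fold higher. Its rank was at percentile 40.2 and 35.3 of the abh1 libraries and at percentile 86.0 and 85.4 of the Col-0_CHX libraries. The log2 difference was -0.91 ± 0.14 (SE), with a limma adjusted p of 0.167 over all loci. Over the loci with no repeated value PSAD-2 fell in abh1 past the test (limma adjusted p = 0.0383). That call was lost with libraries centred (limma adjusted p = 0.0672) and without the first or the second abh1 library (limma adjusted p = 0.329 and 0.333). Over all settings tried for this gene the limma adjusted p ranged from 0.0235, with the second Col-0_CHX library left out of the smaller set, to 0.707, and the index was lower in abh1 in each.

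PSAF (AT1G31330), a subunit that helps plastocyanin to dock on the lumen side, had the lowest index of photosystem I in abh1, 0.843 and 0.878, beside 1.18 and 1.15 in Col-0_CHX. PSAO (AT1G08380), a small membrane subunit, had 0.988 and 0.950 in abh1 and 1.10 and 1.24 in Col-0_CHX. PSAH-2 (AT1G52230), of the subunit at which the mobile antenna docks, had 1.20 and 1.21 in abh1 and 1.56 and 1.48 in Col-0_CHX. The abh1 pairs lay below the Col-0_CHX pairs in these genes and in PSAK and PSAG, membrane subunits that contact the antenna. PSAK (AT1G30380) had 1.07 and 1.09 in abh1 and 1.41 and 1.28 in Col-0_CHX, and PSAG (AT1G55670) had 1.08 and 1.05 in abh1 and 1.25 and 1.19 in Col-0_CHX. The groups overlapped in PSAN (AT5G64040), a lumen subunit, with 1.13 and 1.34 in abh1 and 1.41 and 1.28 in Col-0_CHX. They overlapped too in PSAE-1 (AT4G28750), of a stromal subunit beside PSAD, with 1.01 and 1.20 in abh1 and 1.07 and 1.20 in Col-0_CHX. The log2 difference of PSAE-1 was -0.04 ± 0.17 (SE; limma adjusted p = 0.908), and it was positive with libraries centred (0.18), without the second Col-0_CHX library (0.039) and without the first abh1 library (0.080). The log2 differences of PSAE-2, PSAL and PSAH-1 lay between -0.18 and -0.16.

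The 9 photosystem II genes had the median log2 difference nearest to 0 of the 4 families as deposited, at -0.07, but farthest from 0 with libraries centred, at 0.15. In 5 of them the groups overlapped on the deposited scale, as they did at 7508 of all 17049 loci. With libraries centred, abh1 lay above Col-0_CHX with no overlap in 6 and below in 1. The shares over all loci were 24.9% and 26.3% on that scale. PSBY (AT1G67740), a small membrane protein, stood at 1.10 and 1.06 in abh1 and at 1.39 and 1.33 in Col-0_CHX, a clear gap between the groups. Its log2 difference was -0.34 ± 0.13 (SE; limma adjusted p = 0.285). PSBO2 (AT3G50820), the other copy of the manganese-stabilising protein, stood at 1.06 and 1.06 in abh1 and at 1.26 and 1.21 in Col-0_CHX. PSBQ-2 (AT4G05180), of a protein on the lumen side of the water-splitting complex, stood at 1.13 and 1.17 in abh1 and at 1.25 and 1.23 in Col-0_CHX. With PSBO1, these were the 4 genes of the family in which abh1 lay below Col-0_CHX with no overlap on the deposited scale. Of all loci, 45.2% were so placed. PSBP-1 (AT1G06680), also of the water-splitting complex, stood at 1.04 and 1.05 in abh1 and at 1.10 and 0.974 in Col-0_CHX. PSBR (AT1G79040), which helps PSBP to bind, stood at 0.983 and 0.993 in abh1 and at 1.03 and 0.983 in Col-0_CHX. PSBW (AT2G30570), a small membrane subunit, stood at 1.14 and 1.11 in abh1 and at 1.06 and 1.18 in Col-0_CHX. In these genes the abh1 values fell between or beside the Col-0_CHX values, and the log2 difference of PSBW was 0.01 ± 0.14 (SE; limma adjusted p = 0.975). It was -0.0092 without the first abh1 library, -0.068 without the first Col-0_CHX library and 0.088 without its replicate. The groups overlapped too in PSBX (AT2G06520), with 1.07 and 1.14 in abh1 and 1.16 and 1.10 in Col-0_CHX, and in PSBQ-1 (AT4G21280), with 1.23 and 1.05 in abh1 and 1.26 and 1.17 in Col-0_CHX.

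The 4 genes for the Rubisco small subunit split into 3 with a lower and 1 with a higher index in abh1, in each with no overlap of the groups. Of all loci, 45.2% and 10.7% were so placed. With libraries centred the groups again did not overlap in 3 and in 1, beside 26.3% and 24.9% of all loci. RBCS1A (AT1G67090), which lies on another chromosome than the other copies, stood at 0.941 and 0.914 in abh1 and at 1.22 and 1.16 in Col-0_CHX. RBCS2B (AT5G38420) stood at 0.961 and 1.01 in abh1 and at 1.29 and 1.35 in Col-0_CHX. RBCS3B (AT5G38410) stood at 1.11 and 1.10 in abh1 and at 1.47 and 1.37 in Col-0_CHX. In these 3 genes the index was 1.28-fold, 1.34-fold and 1.28-fold higher in Col-0_CHX. RBCS1B (AT5G38430) stood at 1.02 and 1.03 in abh1 and at 0.836 and 0.880 in Col-0_CHX, where it was the lowest of the copies. The log2 difference was 0.26 ± 0.13 (SE) for RBCS1B (limma adjusted p = 0.373) and -0.42 ± 0.13 (SE) for RBCS2B (limma adjusted p = 0.235). Over loci with no repeated value the limma adjusted p was 0.0743 for RBCS2B and 0.164 for RBCS1B, and over the settings tried it reached 0.718 and 0.786. Both differences kept their sign with libraries centred (-0.20 and 0.48) and without any single library. The values of single copies remain uncertain, as the assignment of reads that match several copies is not stated.

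Copies of the same subunit were also compared within a library, where a uniform shift between libraries cancels out. A difference in spread does not cancel. The standard deviation of the log2 index across the 43 genes was 0.14 and 0.15 in abh1 and 0.23 and 0.27 in Col-0_CHX. The ratio of RBCS1B to RBCS2B, direct neighbours in the RefSeq order, was 1.06 and 1.02 in abh1 and 0.650 and 0.653 in Col-0_CHX. The ratio of RBCS1A to RBCS3B was 0.845 and 0.828 in abh1 and 0.829 and 0.843 in Col-0_CHX. The first ratio thus differed between the groups by far more than between replicates, and the second did not. How reads that match several copies were assigned is not stated, so ratios of single copies are uncertain. The ratio of PSAD-1 to PSAD-2 was 1.03 and 1.10 in abh1 and 0.686 and 0.662 in Col-0_CHX. PSAD-1 (AT4G02770) itself had 1.12 and 1.15 in abh1 and 1.43 and 1.28 in Col-0_CHX, so both copies had a lower index in abh1 and PSAD-2 by more. The ratio of PSBO1 to PSBO2 was 0.825 and 0.829 in abh1 and 0.730 and 0.761 in Col-0_CHX, with PSBO1 below PSBO2 in every library. The ratio of LHCB1.4 to LHCB1.5 was 0.932 and 0.949 in abh1 and 0.921 and 0.940 in Col-0_CHX, and here the groups overlapped. Of 27 pairs of copies in 9 families, the ratio did not overlap between the groups in 15, of which 4 include LHCB1.3 and 3 include RBCS1B. No such share was computed for other pairs of loci, so the count is not read against a background. An exact two-sided permutation test of 2 libraries against 2 cannot go below p = 0.333, which those 15 pairs reached, with a Benjamini-Hochberg adjusted value of 0.60 over the 27 exact tests.

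**Figure D5:**
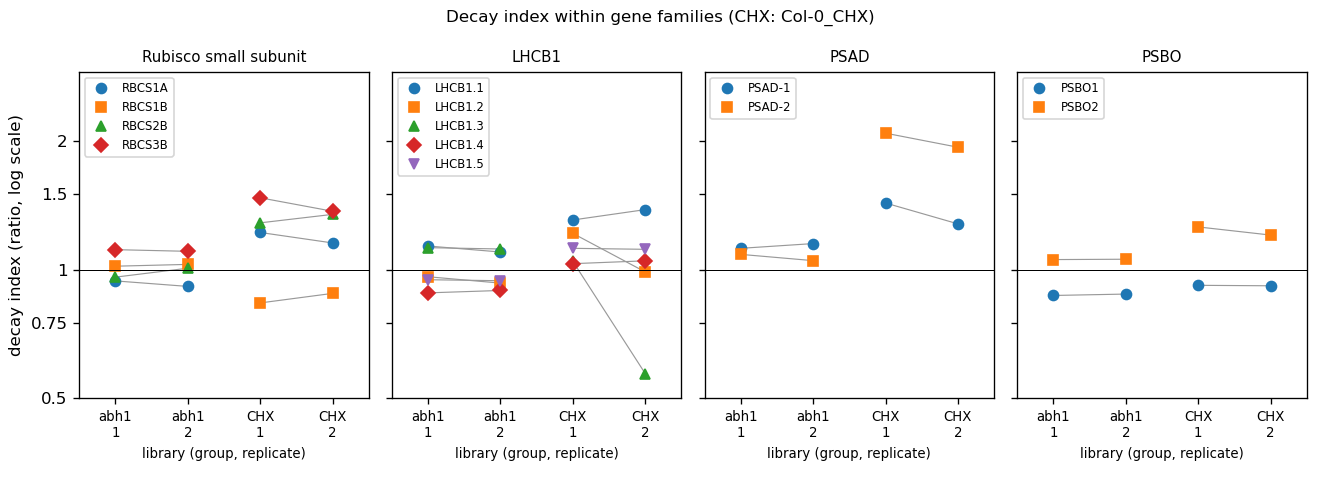
Decay index (vertical axis, ratio on a log scale) of the copies of the Rubisco small subunit, LHCB1, PSAD and PSBO in each library (horizontal axis, group and replicate), with grey lines joining the replicates of a group and a line at 1. RBCS1B (0.836 and 0.880) is the lowest Rubisco copy in both Col-0_CHX libraries, and LHCB1.3 (0.572) the lowest LHCB1 copy in 1 of them. PSAD-2 (2.09 and 1.93) lies above PSAD-1 in Col-0_CHX and below it in abh1.

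A list of 41 other nuclear genes for chloroplast proteins had a median log2 difference of -0.25, with 35 lower and 6 higher in abh1 (72.2% of all loci were lower). The median was -0.14 without the first Col-0_CHX library and -0.025 with libraries centred. The lower genes were 8 of 10 for electron carriers, 4 of 4 for the ATP synthase, 4 of 6 for further antenna and photosystem II proteins, 3 of 3 for antenna insertion, 11 of 13 for chlorophyll synthesis, the kinases STN7 and STN8, the regulators GLK1 and GLK2, and Rubisco activase. Limma called 0 over all loci and 3 of the 31 with no repeated value, all of which fell in abh1, as did 8.03% of loci in that set. GLK1 (AT2G20570), a transcription factor that activates antenna and chlorophyll genes, stood at 1.19 and 1.21 in abh1 and at 2.52 and 2.38 in Col-0_CHX, with a log2 difference of -1.03 ± 0.13 (SE). CAO (AT1G44446, CH1 in RefSeq), the oxygenase that makes chlorophyll b, stood at 1.05 and 1.11 in abh1 and at 1.79 and 1.80 in Col-0_CHX, with a log2 difference of -0.73 ± 0.13 (SE). PETC (AT4G03280), the Rieske protein of the cytochrome complex, stood at 0.885 and 0.839 in abh1 and at 1.30 and 1.25 in Col-0_CHX, with a log2 difference of -0.57 ± 0.14 (SE). In all 3 genes the gap between the groups was several times that between replicates. They are named because they were called, a choice that favours such a gap. Their limma adjusted p was 0.0383, 0.0383 and 0.0484 in the smaller set and 0.167, 0.167 and 0.183 over all loci, and reached 0.707 over the settings tried. These calls were lost with libraries centred, without the first abh1 library and without the second, and 10 of the 31 genes were called when the second Col-0_CHX library was left out, beside 29.8% of loci. FD1 (AT1G10960), a leaf ferredoxin, stood at 1.15 and 1.17 in abh1 and at 1.90 and 1.87 in Col-0_CHX, with a repeated value in 1 library, a log2 difference of -0.70 ± 0.13 (SE) and a limma adjusted p of 0.168 over all loci.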

How the data were processed

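For each library the authors deposited a linear ratio per gene model, the decay index. Its formula, read minimum and annotation are not given in the sources. The submitters' processing notes name cutadapt 1.4.2, STAR 2.4.0 and TAIR10. Reads were 50 nt and strand-specific per the labels. Depth is unknown, and no counting interval was made. Groups came from the labels.

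The members and lists were chosen with earlier results of these data known. A RefSeq table (TAIR10.1), which held all 43 members, gave names and gene order only. The log2 index needed no pseudocount, as no value was 0. Loci listed in every library entered limma (version 3.58.1, R 4.3.3; lmFit and eBayes, no covariate, Benjamini-Hochberg over all loci tested, threshold 0.05). Repeated values are those held by over 10 loci of a library. The alternatives were leaving out loci with repeated values, centring, quantile normalization, trended or robust fitting, a replicate block, loci listed at least once per group, leaving out each library (the spread of a lone library is then taken from the other group), a threshold of 0.1 and means. Differences with SE and p are printed for the most negative, most positive and smallest-p gene of each class, for called genes, and for the 4 smallest p among other chloroplast genes. The software was Python 3.11.15, numpy 2.4.6, pandas 2.3.3, scipy 1.17.1, matplotlib 3.10.9.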

Additional observations from a re-analysis of the deposited data

How the results depend on the processing

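The median turned positive with centring and with quantile normalization for LHC and photosystem II, and with centring only for all 43 genes. It stayed negative with both for photosystem I, Rubisco and the other chloroplast genes. With libraries centred, and with quantile normalization, the median difference was 0.038 and -0.029 for all 43 genes, 0.029 and 0.027 for LHC, -0.0051 and -0.032 for photosystem I, 0.15 and 0.090 for photosystem II, -0.14 and -0.20 for Rubisco, and -0.025 and -0.066 for the other chloroplast genes, and 15 and 22 of the 43 genes were lower in abh1. Means in place of medians gave -0.10 for LHC, -0.28 for photosystem I, -0.097 for photosystem II and -0.22 for Rubisco. Without LHCB1, LHCB2 and RBCS, a choice made after the data were seen, the median was -0.16 over all and -0.12 over LHC. Leaving out 1 library, the medians ranged from -0.21 to -0.17 over all 43 genes, -0.20 to -0.17 for LHC, -0.27 to -0.17 for photosystem I, -0.083 to -0.066 for photosystem II, -0.39 to -0.31 for Rubisco and -0.29 to -0.14 for the other chloroplast genes. Over loci without repeated values limma called 567 loci, 1 of the 43 genes and 3 other chloroplast genes. Leaving out 1 library, over both sets of loci, these counts ranged from 0 to 1957, 0 to 3 and 0 to 10. In the smaller set 0 loci were called without the first or the second abh1 library, 1137 without the first Col-0_CHX library and 1957 without the second. Among single genes, quantile normalization turned LHCA2 to 0.12, LHCB6 to 0.052 and PSAE-1 to 0.12, and centring turned LHCA1 to 0.012, LHCA2 to 0.13, LHCA3 to 0.0092, LHCB6 to 0.079 and PSAE-1 to 0.18. PSAE-1 was 0.080 without the first abh1 library and 0.039 without the second Col-0_CHX library, and PSBW was -0.0092 without the first abh1 library, -0.068 without the first Col-0_CHX library and 0.088 without its replicate. The replicate block, with numbers that correlated at -0.0043 across 17049 loci, left the median difference of the 43 genes at -0.18 and called 0 loci, with 2378 at an unadjusted p under 0.05. Ranked among loci without repeated values, the median percentile was 36.7 and 32.0 in abh1. Ranked among loci in all 4 libraries, a setting added after the data were seen, it was again 36.7 and 32.0 there, and 33.6 and 38.5 in Col-0_CHX. With a limit of 5 loci, 1 gene had a repeated value in the second abh1 library. The alternative that leaves out members with near-identical proteins was not run, since no protein sequences were used here. The cause of these changes was not tested. With 2 libraries a group and an unknown depth, small differences were not resolvable gene by gene.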
